A study of Arabidopsis thaliana with 12 samples.

Results

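Libraries of RNA named Mito were compared with libraries of RNA named Total, both from leaves of wild-type Arabidopsis thaliana. The libraries were chosen by their titles, which gave 3 Mito WT and 3 Total WT libraries, or 6 of the 12 libraries of the series. All 6 came from the accession Col-0 (WT). The plants were untreated, vegetative, 35 days old and grown in long days. The other 6 libraries carried an insertion in OTP90, a gene for an RNA editing protein, and serve here only for the comparison at the end. The design text calls the replicates biological. The labels give both kinds of RNA as total RNA of leaf and do not say how the Mito extract was made. The study's methods describe RNA extraction from whole leaves only, so that Mito and Total are used as names of libraries. The question was which classes of nuclear transcripts were more or less abundant in Mito WT than in Total WT.

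Messenger RNAs leave the nucleus for different places in a plant cell. Those of secreted and membrane proteins carry a first stretch of hydrophobic codons, which is read while ribosomes dock on the endoplasmic reticulum, so these messages are largely bound to membranes. Most proteins of mitochondria and plastids are also encoded in the nucleus, made in the cytosol and then imported, and some of their messages are known to be found near the organelle surface. Messages of ribosomal proteins and histones are short, abundant and translated on ribosomes of the cytosol.

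The Mito WT libraries held 27611023 to 32418348 counts and the Total WT libraries 49434596 to 52443538. Nuclear genes took 47.9% to 52.67% of the counts in Mito WT and 38.63% to 42.07% in Total WT. On the mitochondrial chromosome 51 of 53 tested genes rose in Mito WT and none fell, with a median log2 fold change of 1.37. Of the plastid chromosome, 96 of 128 tested genes fell and 1 rose. Among the 6 libraries, Total WT replicate 2 stood apart. On the first principal component, which held 71% of the variance, it lay at 22.6, against 68.2 and 56.5 for the other Total WT libraries and -51.5 to -46.1 for Mito WT. Many class counts are therefore given with and without it.

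Of the 16255 nuclear genes that passed the filter, 3696 (22.7%) were higher and 3332 (20.5%) lower in Mito WT at an adjusted p under 0.05. These percentages are the background for each class in this fit. Without Total WT replicate 2 the background was 5066 higher and 5008 lower of 16120 nuclear genes, so class counts without it belong beside these. Of the 16255 genes, 613 were over 1 CPM in no Total WT library and so passed the filter through Mito WT alone, and 485 of them were higher. Another 55 passed through Total WT alone, and all 55 were lower. Such genes could differ in 1 direction only, so their calls are a description, and their number is given for the classes that hold many of them. The other genes were over 1 CPM in libraries of both groups. Among these 15587 genes, 3211 were higher and 3277 lower. The test was the quasi-likelihood test of edgeR with Benjamini-Hochberg adjustment over all 16436 tested genes, and a gene called higher or lower below passed it. Over all genes the 7176 calls became 10242 when Total WT replicate 2 was left out. They became 4547 without Mito WT replicate 1 and 4322 without Mito WT replicate 3. With 1 Mito WT library left out, 2284 to 2549 genes were higher and 2038 to 2245 lower of 15737 to 15761. The filter still asked for 3 libraries over 1 CPM, so genes that passed through Mito WT alone were not in these fits. Class counts and medians from these fits thus also reflect a smaller set of genes and of libraries. Fold changes are given as log2 of Mito WT over Total WT, and the median over nuclear genes was 0.00. With scaling by library size alone the median of all genes moved up by 0.48, and 88.8% of calls were higher in place of 52.2%. Every direction below is thus relative to the bulk of the transcriptome. Lack of overlap between the groups is stated for single genes as a description only, since its share over all genes is not given here.

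Gene length, taken as the summed exons of a gene, went with the fold change. Nuclear genes were cut by length into 10 bins with equal numbers of genes. In the shortest bin, with a median length of 813 bases, 7.2% of genes were higher and 50.4% lower, and the median log2 fold change was -0.52. In the longest bin, with a median of 4040 bases, 71.3% were higher and 1.66% lower, and the median was 0.65. The medians of the bins between them lay in the order of length. Across 16255 genes the log2 fold change and log2 length had a Pearson correlation of 0.398 and a Spearman correlation of 0.543, a description over genes of the same libraries. With Total WT replicate 2 left out these were 0.371 and 0.491 over the 15979 protein-coding genes, against 0.415 and 0.547 with it. The GC content of the same genes went with the fold change less closely, at 0.166 and 0.185.

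**Figure D1:**
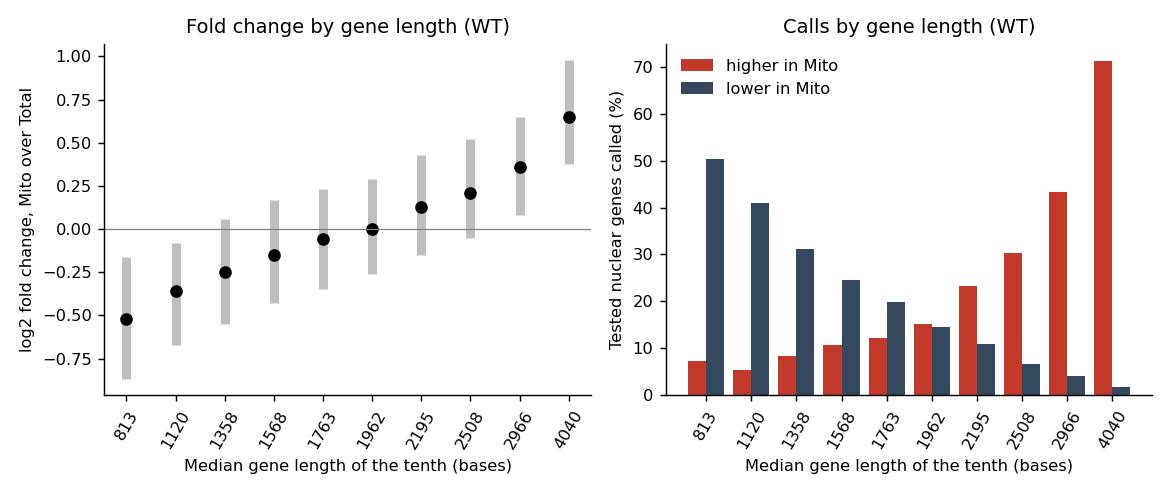
Nuclear genes in 10 bins of gene length, with the median length of each bin on the horizontal axis in bases. The left panel gives the median log2 fold change of Mito WT over Total WT (points) with the interquartile range (bars). It climbs with length, from -0.52 in the shortest to 0.65 in the longest bin. The right panel gives the percentage of genes called higher (left bars) or lower (right bars) in Mito WT.

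The mean length of a nuclear gene, weighted by its counts, was 2349, 2361 and 2392 bases in the Mito WT libraries, against 1908, 2005 and 1953 bases in the Total WT libraries. Each Mito WT library thus lay above each Total WT library. The means were 2367 ± 22.0 bases in Mito WT and 1956 ± 48.8 bases in Total WT (SD, n = 3 each), a difference of 411.7 bases. An exact two-sided permutation test gave p = 0.1, the smallest that 3 against 3 libraries allow. Because classes differ in length, each class median below is also given as the median difference of its members from the median of all nuclear genes in the same length bin (called genes of like length below). A second fit used offsets corrected for length, that is a smooth curve of log ratio against log2 length removed from each library. It gave 2286 nuclear genes higher and 2473 lower of 16255, the background for class counts with these offsets. Whether length itself, RNA integrity or the preparation set the pattern across lengths was not tested.

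The class of secretory transcripts took in wall enzymes, wall proteins, secreted proteases and lipases, small secreted proteins and the machinery of the secretory pathway. Of its 1035 genes 397 passed the filter, and 137 (34.5%) were higher and 49 (12.3%) lower in Mito WT. Their median log2 fold change was 0.20, or 0.17 above genes of like length. Of the 137, 36 were among 39 members that passed the filter through Mito WT alone, and of the 358 over 1 CPM in both groups 101 were higher and 49 lower. Without Total WT replicate 2 the counts were 190 higher and 101 lower, with a median of 0.29. Leaving out 1 Mito WT library gave 82 to 84 higher and 23 to 32 lower of 357 to 358 tested, with a median of 0.11 to 0.15. These fits lack the members that passed through Mito WT alone. Secretory transcripts made up 4.19% to 4.39% of nuclear counts in Mito WT and 3.25% to 3.46% in Total WT, so the groups did not overlap. Genes of the cytosol and nucleus, listed for comparison, did not overlap either, with 2.19% to 2.24% in Mito WT and 1.69% to 2.1% in Total WT. A higher share without overlap is thus not particular to secretory transcripts.

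Some of the secretory members named for their size of rise, the 2 largest of each list at a mean log2 CPM of at least 3, carry a hydrophobic stretch near the start of the protein. The first 99 bases of the coding sequence are shown for 4 that do, as examples of the feature, with the codons of the 10 residues of highest mean hydropathy in capitals. The bases come from RefSeq (assembly TAIR10.1, whose chromosomes have the coordinates of TAIR10). AGP31 lies on the minus strand at chr1:9890745-9890843, AT2G37130 on the minus strand at chr2:15599729-15600004 over 2 exons, AT2G43150 on the plus strand at chr2:17945893-17945991, and BXL1 on the minus strand at chr5:20016561-20016659.
AGP31: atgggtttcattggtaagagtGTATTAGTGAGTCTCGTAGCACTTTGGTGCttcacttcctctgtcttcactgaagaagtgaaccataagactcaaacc
AT2G37130: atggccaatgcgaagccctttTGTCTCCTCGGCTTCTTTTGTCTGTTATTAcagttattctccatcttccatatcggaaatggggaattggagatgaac
AT2G43150: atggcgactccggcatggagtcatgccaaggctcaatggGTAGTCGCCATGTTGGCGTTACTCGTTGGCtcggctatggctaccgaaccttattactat
BXL1: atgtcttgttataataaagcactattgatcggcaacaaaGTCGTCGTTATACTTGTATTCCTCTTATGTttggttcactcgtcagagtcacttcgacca
The levels of these 4 genes follow.

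AGP31, an arabinogalactan protein of the cell wall, had 15.97, 17.7 and 17.5 CPM (counts scaled to libraries of equal size, with TMM factors) in the Mito WT libraries, against 0.798, 0.615 and 0.710 CPM in the Total WT libraries. Its log2 fold change was 4.59 ± 0.13 (SE), with an adjusted p of 5.27e-05 (edgeR quasi-likelihood). AT2G37130, a secreted class III peroxidase by its family, had 16.9, 14.7 and 15.02 CPM in Mito WT, against 1.31, 0.743 and 0.734 CPM in Total WT. In both genes every Mito WT library lay far above every Total WT library. AGP31 was over 1 CPM in no Total WT library and passed the filter through Mito WT alone, and AT2G37130 was over 1 CPM in 1 Total WT library. AT2G43150, an extensin-like protein, had 37.5, 37.7 and 45.7 CPM in Mito WT, against 2.81, 4.39 and 2.89 CPM in Total WT, a log2 fold change of 3.58. Of the wall structural and arabinogalactan proteins as a whole, 27 of 53 tested were higher and 6 lower, with a median of 0.47, or 0.52 above genes of like length. Of the 43 over 1 CPM in both groups 18 were higher and 6 lower. Leaving out Total WT replicate 2, 13 were lower, and leaving out 1 Mito WT library left 15 to 16 higher and 5 lower of 43 tested. Abundant or short members of this class moved less or the other way. PRP4, a proline-rich wall protein, rose by 0.86 at 607 ± 30.5 CPM in the Mito WT libraries, against 335 ± 83.0 CPM in the Total WT libraries (SD, n = 3 each). AGP21, with an mRNA of 427 bases, fell by 1.09, and by 0.45 with length-corrected offsets.

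Enzymes of xyloglucan and hemicellulose showed no fall among 36 tested members, 18 of which were higher (median 0.62). Of the 30 members over 1 CPM in both groups, 14 were higher. Leaving out Total WT replicate 2, the counts were 19 higher and 7 lower. BXL1, a beta-xylosidase that trims wall polymers, had 185, 167 and 171 CPM in Mito WT, against 28.3, 23.5 and 33.0 CPM in Total WT. This log2 fold change of 2.63 ± 0.15 (adjusted p = 0.000213, edgeR quasi-likelihood) was the largest among nuclear genes with a mean log2 CPM of at least 5. XYL4, another beta-xylosidase, was at 40.8 ± 2.25 CPM in the Mito WT libraries, against 7.28 ± 2.60 CPM in the Total WT libraries (SD, n = 3 each). XTH24, which cuts and rejoins xyloglucan chains, had 121, 101 and 99.9 CPM in Mito WT, against 23.2, 25.2 and 16.6 CPM in Total WT. BGAL1, a beta-galactosidase and the most abundant member, was at 507 ± 76.4 CPM in the Mito WT libraries, against 172 ± 54.2 CPM in the Total WT libraries (SD, n = 3 each). BXL1 and XTH24 were named by a rule that takes only genes whose groups do not overlap, and the values of XYL4 and BGAL1 did not overlap either. Each of the 4 genes kept its call under every setting tried.

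Pectin enzymes were less uniform, with 16 of 51 higher and 4 lower. The pectin acetylesterase AT4G19420 had 61.6, 47.2 and 54.5 CPM in Mito WT, against 13.2, 12.9 and 9.03 CPM in Total WT. PME3, a pectin methylesterase, rose by 1.11 on the log2 scale, and AT3G53190, a pectin lyase-like protein, by 1.64. The 4 lower members, AT3G09540, AT3G24670, AT4G23500 and AT5G19730, were also all pectin lyase-like. With Total WT replicate 2 left out 20 pectin enzymes were higher and 12 lower, and with 1 Mito WT library left out 12 to 13 were higher and 1 to 2 lower of 49. Of 16 expansins, which loosen walls, EXPA15 and EXPB3 were higher and EXPA5, EXPA9, EXPB1 and EXLB1 lower, or 3 higher and 7 lower in all when Total WT replicate 2 was left out and 2 higher and 2 to 4 lower when 1 Mito WT library was.

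Secreted subtilases and carboxypeptidases had 22 of 54 members higher and 1 lower, AT2G33585. Leaving out Total WT replicate 2, the counts were 26 and 12, and 15 to 16 were higher of 51 tested when 1 Mito WT library was left out. SBT1.3, a subtilisin-type protease, had 34.0, 41.0 and 36.2 CPM in Mito WT, against 5.42, 11.8 and 7.02 CPM in Total WT, with no overlap. Class III peroxidases and germins split, with 9 of 20 higher and 5 lower, and 5 of the 9 passed the filter through Mito WT alone. With any 1 Mito WT library left out 2 to 3 were higher and 3 to 4 lower of 15 tested. PRXR1, the most abundant peroxidase of the list, had 1047, 1133 and 1051 CPM in Mito WT, against 564, 448 and 493 CPM in Total WT. The 5 lower members were GER1, GL22, GLP10, AT2G34060 and AT5G51890, and the first 3 of these are germin-like. GER1 was at 1041 ± 36.2 CPM in the Mito WT libraries, against 1365 ± 137 CPM in the Total WT libraries (SD, n = 3 each), a log2 fold change of -0.39 that became 0.05 with length-corrected offsets and 0.10 with library size only. GER3, in contrast, was higher with 20.5, 21.1 and 20.5 CPM in Mito WT, against 1.15, 9.99 and 2.81 CPM in Total WT. Its call was lost when any 1 of the Mito WT libraries or Total WT replicate 3 was left out (adjusted p of up to 0.119, edgeR quasi-likelihood).

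Short secreted messages did not share the rise. Of 40 small secreted proteins, 12 were higher and 12 lower, with a median of -0.20 and a median length of 962 bases. Set against genes of like length, their median was 0.26. Of the 12 higher members 8 passed the filter through Mito WT alone. When 1 Mito WT library was left out, 3 to 4 were higher and 5 to 6 lower of 31 to 32 tested, with a median of -0.45 to -0.39. The length-corrected offsets gave 12 higher and 3 lower. GASA1, a gibberellin-regulated peptide, was at 124 ± 7.29 CPM in the Mito WT libraries, against 65.1 ± 22.6 CPM in the Total WT libraries (SD, n = 3 each). AT1G22690, of the same gibberellin-regulated family, had 5.06, 4.38 and 3.82 CPM in Mito WT, against 30.6, 29.8 and 32.4 CPM in Total WT, a log2 fold change of -2.80. The family thus held members called in both directions. GDSL lipases had 8 of 43 (18.6%) higher and 6 (14.0%) lower, and 12 higher and 14 lower when Total WT replicate 2 was left out. Of those 8, 5 passed the filter through Mito WT alone, and 1 to 2 were higher and 4 to 5 lower of 38 tested when 1 Mito WT library was left out.

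Parts of the secretory machinery differed from its cargo. Vesicle coats, which bud carriers from membranes, had 15 of 25 members higher and 1 lower, the clathrin light chain CLC2, and none was called with length-corrected offsets. Leaving out any 1 library other than Total WT replicate 2 left 9 to 12 higher. Their median was 0.41 and their median length 3506 bases, and they lay 0.03 below genes of like length. The clathrin heavy chain has a pair of genes on this list. AT3G11130 and AT3G08530 rose by 0.90 and 0.96, and with length-corrected offsets stood at -0.05 and 0.04. The translocon, signal peptidase and oligosaccharyltransferase list had 5 of 34 higher and 9 lower, and 14 higher and 11 lower when Total WT replicate 2 was left out. It had 1 higher without Total WT replicate 3, and 2 to 3 higher and 3 to 4 lower when 1 Mito WT library was left out. Its higher members were STT3B, AT1G67680, AT1G76400, AT4G30600 and AT5G60460, while the short SEC61 BETA (AT2G45070) fell by 0.96.

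Chaperones of the endoplasmic reticulum depended on 1 library. SHD, the endoplasmic reticulum form of the chaperone HSP90, had 448, 495 and 494 CPM in Mito WT, against 132, 661 and 205 CPM in Total WT. BIP1, an HSP70 of the same compartment, had 225, 264 and 267 CPM in Mito WT, against 74.3, 372 and 120 CPM in Total WT. In both genes Total WT replicate 2 lay above every Mito WT library and the other Total WT libraries lay below them. Of 25 tested members 3 were higher (PDIL1-4, PDIL5-2 and PDIL5-4) and 1 lower, and the lower one, SCO2, is known as a plastid protein. With that library left out, 21 were higher and 1 lower, and the median was 0.71 in place of 0.22. With any other library left out 1 to 3 were higher.

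**Figure D2:**
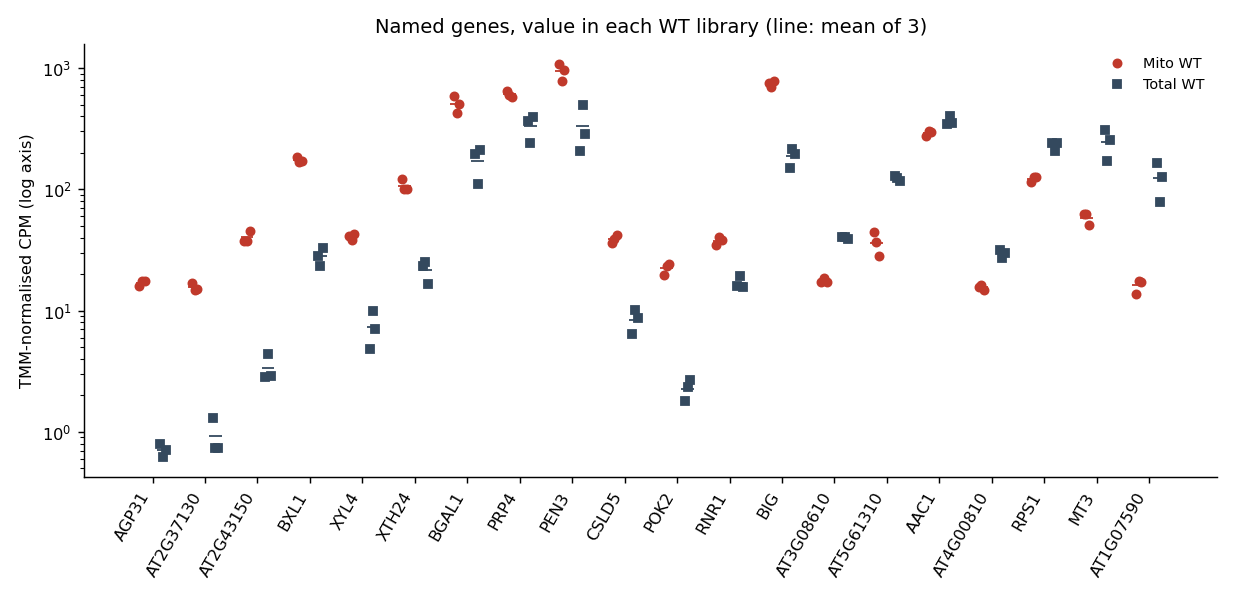
Level of 20 genes in each WT library, in TMM-normalised CPM on a log axis, with Mito WT libraries as circles to the left, Total WT libraries as squares to the right and a short line at the mean of 3. The secretory genes AGP31, AT2G37130 and BXL1 lie higher in all Mito WT libraries, and AT3G08610, AT5G61310 and MT3 lie lower.

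Membrane proteins other than the machinery above were listed as aquaporins, polysaccharide synthases, receptor-like kinases, ABC transporters, pumps and other transporters. Of 1019 genes 656 were tested, 237 (36.1%) were higher and 50 (7.62%) lower, and the median log2 fold change was 0.41. These messages are long, with a median of 2518 bases, and the median over genes of like length was 0.15. With length-corrected offsets 124 were higher and 66 lower. Of the 622 members over 1 CPM in both groups 212 were higher and 49 lower. Leaving out Total WT replicate 2, the counts were 373 higher and 108 lower, and leaving out 1 Mito WT library gave 154 to 169 higher and 23 to 27 lower. Membrane transcripts took 5.04% to 5.19% of nuclear counts in Mito WT and 3.24% to 3.75% in Total WT, again without overlap. This too was shared with the comparison genes of the cytosol and nucleus.

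Cellulose and callose synthases had 21 of 34 members higher and 1 lower, CSLB03, with a median of 0.77 and 0.18 above genes of like length. CSLD5, a cellulose synthase-like protein of dividing cells, had 36.2, 38.7 and 42.1 CPM in Mito WT, against 6.36, 10.1 and 8.73 CPM in Total WT, and its rise of 2.21 was 1.62 with length-corrected offsets. CALS1, a callose synthase of the cell plate, had 78.2, 78.5 and 89.0 CPM in Mito WT, against 9.78, 43.7 and 14.4 CPM in Total WT. CESA1 and CEV1 (CESA3), subunits that make cellulose of primary walls, rose by 0.93 and 0.76. Their calls, and that of CALS1, were lost with length-corrected offsets, where the 3 values were 0.25, 0.18 and 0.81.

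Receptor-like kinases, which sense signals at the cell surface, formed the largest of the membrane lists, with 115 of 242 members higher and 5 lower. With Total WT replicate 2 left out, 191 were higher and 11 lower, and with 1 Mito WT library left out 72 to 84 of 227 were higher. Of the 115, 13 passed the filter through Mito WT alone, and of the 227 over 1 CPM in both groups 102 were higher and 5 lower. AT4G27300, an S-locus lectin kinase, had 41.5, 37.8 and 38.7 CPM in Mito WT, against 8.19, 9.97 and 7.41 CPM in Total WT. GHR1, a receptor-like kinase of guard cells, was at 28.0 ± 0.484 CPM in the Mito WT libraries, against 9.93 ± 1.35 CPM in the Total WT libraries (SD, n = 3 each). SOBIR1, which works with receptor-like proteins of immunity, was not called, with 162, 158 and 162 CPM in Mito WT, against 40.8, 237 and 65.5 CPM in Total WT. Its Mito WT values lay between the Total WT ones, as with SHD and BIP1. The 5 lower members were CRK21, AT5G63710, AT1G29720, AT2G23950 and AT3G03770.

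ABC transporters, which pump compounds at the cost of ATP, had 32 of 86 members higher and 15 lower, and 13 higher and 22 lower with length-corrected offsets. Without Total WT replicate 2, 50 were higher and 21 lower of 84, and leaving out 1 Mito WT library gave 25 to 26 higher and 8 to 9 lower of 77 to 78. PEN3, a plasma membrane pump of pathogen defence, had 1086, 776 and 969 CPM in Mito WT, against 207, 500 and 287 CPM in Total WT. Its log2 fold change of 1.51 passed (adjusted p = 0.0104, edgeR quasi-likelihood), and with length-corrected offsets it was 0.74 and did not (adjusted p = 0.10, edgeR quasi-likelihood). ABCB21, an auxin transporter, rose by 2.14 and kept its call under that setting at 1.43. Proton and calcium pumps had 15 of 42 higher and 8 lower (24 and 11 when Total WT replicate 2 was left out, 10 to 12 and 4 when 1 Mito WT library was), and their median stood at -0.00 against genes of like length. The plasma membrane proton pumps HA1 and HA3 went opposite ways, except with length-corrected offsets, where both were negative. HA1 was at 372 ± 14.6 CPM in Mito WT, against 248 ± 35.7 CPM in Total WT. HA3 was at 75.7 ± 6.62 CPM in the Mito WT libraries, against 131 ± 20.5 CPM in the Total WT libraries (SD, n = 3 each). The log2 fold change of HA1 was 0.58 and, with length-corrected offsets, -0.15.

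Sugar, amino acid and ion transporters had 52 of 233 members higher and 21 lower, with a median of 0.15. These counts were 81 and 52 when Total WT replicate 2 was left out, and 27 to 30 and 8 to 10 of 223 when 1 Mito WT library was. Aquaporins, which are short for membrane proteins, had few calls. Of 12 plasma membrane aquaporins PIP2;8 was higher and none lower, and of 7 tonoplast and other aquaporins NIP5;1 was higher and none lower. NIP5;1 passed the filter through Mito WT alone. Without Total WT replicate 2, 8 of the plasma membrane aquaporins were lower. PIP2A had 622, 669 and 559 CPM in Mito WT, against 880, 519 and 837 CPM in Total WT, so its groups overlapped.

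**Figure D3:**
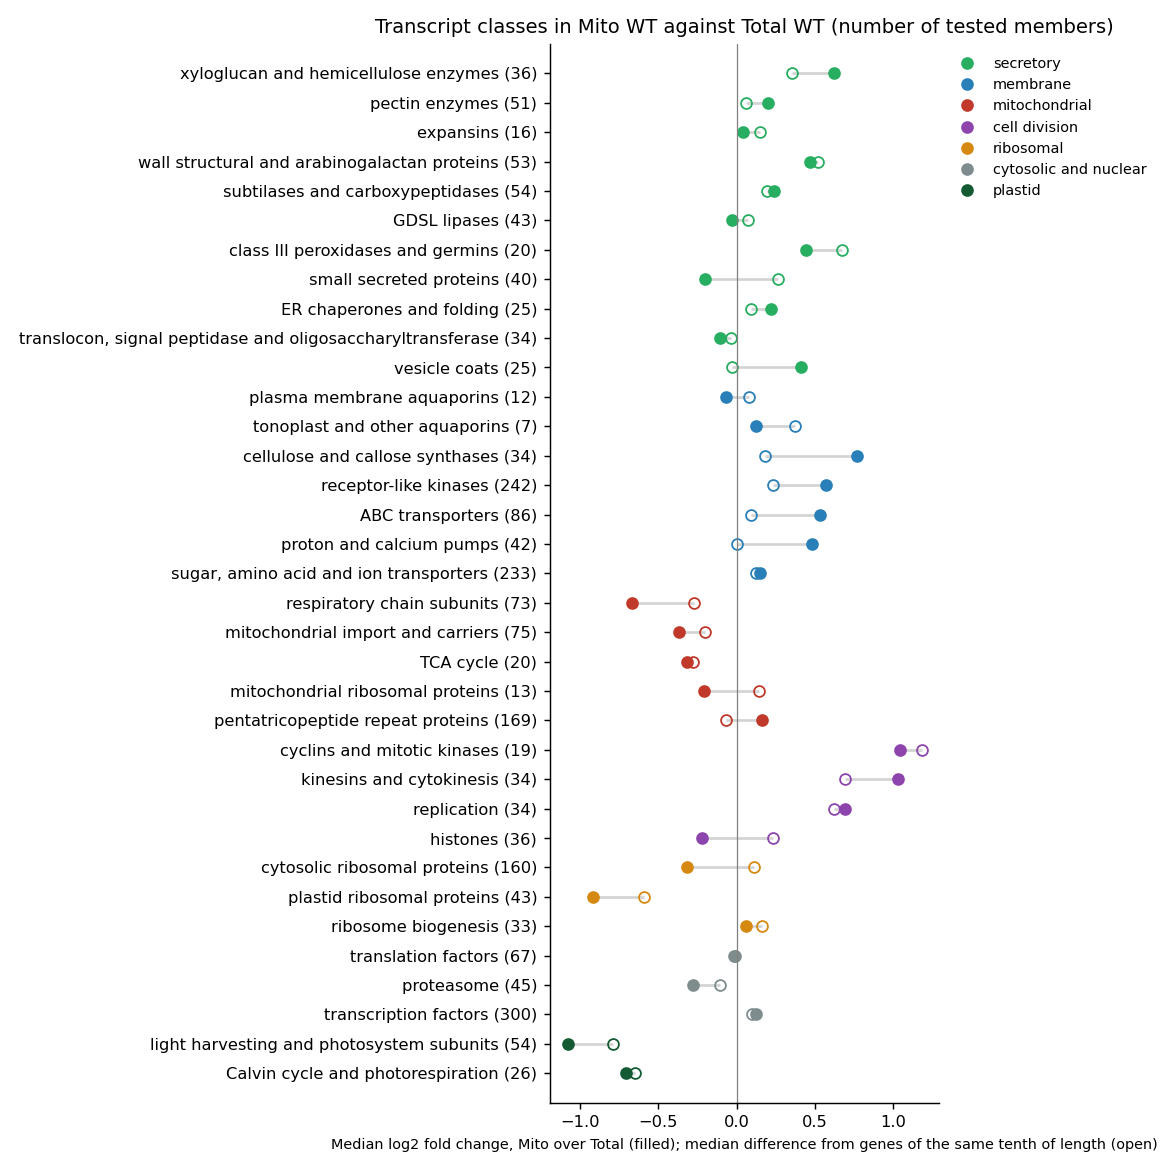
Median log2 fold change of Mito WT over Total WT for each class, with the number of tested members in brackets (filled points), and the median difference of its members from nuclear genes of the same length bin (open points). The cyclin and kinesin lists lie highest, near 1.0, and the light harvesting and plastid ribosomal lists lowest.

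Whether secretory and membrane messages stood apart at a given length was also read from the proteins themselves. Nuclear protein-coding genes were sorted by 2 features computed from the encoded protein, a hydrophobic stretch near its start and membrane spans further on. Of 1581 tested genes with the stretch and no span, 26.2% were higher and 15.1% lower. Of 654 genes with 6 or more spans, 37.9% were higher and 7.34% lower, and of 9824 genes with neither feature 19.7% were higher and 23.3% lower. Within the shortest of 4 length bins, genes with the stretch had a median of -0.30 and 14.9% higher, and genes with neither had a median of -0.43 and 4.83% higher. In the longest bin the medians were 0.49 with the stretch, 0.64 with 6 or more spans and 0.39 with neither. Genes with either feature thus had higher medians than genes with neither in each bin. The exception was genes with 1 span in the shortest bin, whose median of -0.43 was that of genes with neither. These bins are wide, and the longest ran from 2509 to 16614 bases. Set against genes of like length in the 10 bins, medians were 0.16 with the stretch, 0.03 with 1 span and 0.06 with 2 to 5 spans. They were 0.16 with 6 or more spans and -0.04 with neither. With length-corrected offsets 394 genes with 1 span were higher and 403 lower. Those with 2 to 5 spans had 186 and 184, and those with the stretch 365 and 142.

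**Figure D4:**
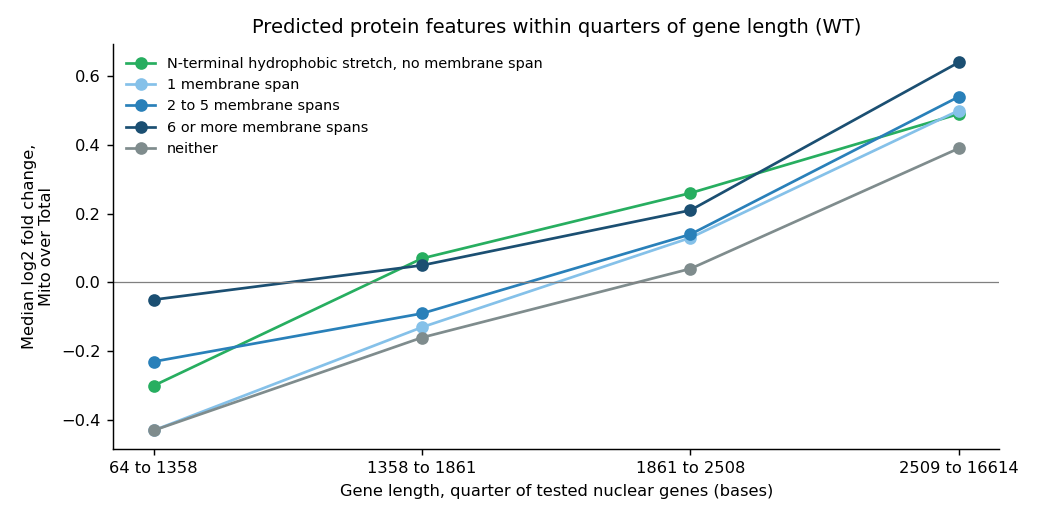
Median log2 fold change of Mito WT over Total WT in 4 bins of gene length (horizontal axis, range in bases), with 1 line for each kind of protein. All lines climb with length, and genes with neither feature lie lowest or level with the lowest in each bin, from -0.43 to 0.39.

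Nuclear transcripts of mitochondrial proteins were not higher in the libraries named Mito. Of 489 genes 350 were tested, 44 (12.6%) were higher and 106 (30.3%) lower, and the median was -0.16, or 0.15 below genes of like length. The group includes 169 tested pentatricopeptide repeat genes, listed by name, whose proteins belong to mitochondria or plastids. These genes held 36 of the 44 higher and 11 of the 106 lower calls, with a median of 0.16. The medians of the other lists ran from -0.67 to -0.21. The whole group still took 1.44% to 1.58% of nuclear counts in Mito WT and 1.15% to 1.31% in Total WT. This share includes nuclear copies of mitochondrial genes. Without Total WT replicate 2 the counts were 60 higher and 150 lower of 346 tested. Leaving out 1 Mito WT library gave 20 to 22 higher and 68 to 77 lower of 333 to 335 tested. With library size only the median was 0.31, below the shift of 0.48 that this scaling gave to all genes.

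Among 73 subunits of the respiratory chain 7 were higher and 52 lower. Of the 7, 6 had exons that share sequence with the mitochondrial chromosome, where reads are counted in both copies. Of the 67 subunits without such sequence INDH, an assembly factor of complex I, was higher, 52 were lower and the median was -0.69. AT3G08610, a small subunit of complex I, had 17.3, 18.5 and 17.3 CPM in Mito WT, against 40.3, 40.5 and 39.1 CPM in Total WT. AT5G61310, subunit Vc of cytochrome c oxidase, had 44.2, 36.5 and 28.4 CPM in Mito WT, against 128, 123 and 118 CPM in Total WT. The groups of AT3G08610 did not overlap, and AT5G61310 was named by a rule that takes only genes without overlap. The fall of AT5G61310 by 1.76 was 1.67 with length-corrected offsets. These messages are short, with a median of 948 bases, and the median of the list was 0.27 below genes of like length.

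Of 75 import components and carriers, which move proteins and metabolites into mitochondria, none was higher and 33 were lower, with a median of -0.37. With Total WT replicate 2 left out, 4 were higher and 48 lower, and with 1 Mito WT library left out 21 to 25 were lower. AAC1, the main ADP/ATP carrier, had 276, 302 and 296 CPM in Mito WT, against 343, 400 and 354 CPM in Total WT. Its log2 fold change of -0.33 was near the threshold (adjusted p = 0.0410, edgeR quasi-likelihood) and was 0.15 with library size only. AT5G19760, a substrate carrier, fell by 0.96 and TOM22-V, a receptor of the outer membrane translocase, by 1.0. Of 20 enzymes of the tricarboxylic acid cycle 7 were lower, MAB1 among them at -0.68, and leaving out Total WT replicate 2 gave 4 higher and 10 lower, and leaving out 1 Mito WT library gave 3 lower. The 1 higher member was AT5G65750, the E1 component of 2-oxoglutarate dehydrogenase, with a log2 fold change of 1.05. Its gene has 3542 bases, against a median of 1854 bases in the list, and its call was lost with length-corrected offsets (0.54, adjusted p = 0.0938, edgeR quasi-likelihood).

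Of 13 mitochondrial ribosomal proteins AT2G21290, AT3G01740 and AT4G28360 were lower and none was higher. Without Total WT replicate 2, 5 were lower, and 1 was lower when any 1 Mito WT library was left out. Pentatricopeptide repeat proteins, long RNA-binding proteins of mitochondria and plastids, had 36 of 169 higher and 11 lower. Their median of 0.16 was 0.07 below genes of like length. Of the 36, 8 passed the filter through Mito WT alone. Without Total WT replicate 2, 44 were higher and 33 lower, and 13 to 15 were higher and 2 to 5 lower when 1 Mito WT library was left out.

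Cell division transcripts had the highest share of higher members of the 5 groups. Of 168 genes 123 were tested, 66 (53.7%) were higher and 14 (11.4%) lower, the median was 0.43, and it was 0.57 above genes of like length. Without Total WT replicate 2 the counts were 71 and 22, and leaving out 1 Mito WT library gave 48 to 51 higher and 1 to 4 lower. Histones accounted for 12 of the 14 lower members. Cyclins and mitotic kinases, which drive the cell cycle, had 16 of 19 higher and none lower, with a median of 1.04. Of the 16, 8 passed the filter through Mito WT alone, and 7 of 11 tested were higher when any 1 Mito WT library was left out. Of the 28 members fitted with no filter 20 were higher and none lower. Kinesins and cytokinesis genes had 30 of 34 higher and AT4G26410 lower (22 to 25 higher of 31 with 1 Mito WT library left out), and replication genes had 20 of 34 higher and emb1688 lower.

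POK2, a kinesin that orients the new cell wall, had 19.8, 23.4 and 24.4 CPM in Mito WT, against 1.78, 2.35 and 2.69 CPM in Total WT. Its log2 fold change of 3.31 ± 0.18 (adjusted p = 0.000204, edgeR quasi-likelihood) was 2.01 with offsets corrected for its length of 8663 bases. RNR1, a subunit of ribonucleotide reductase, had 34.6, 40.4 and 38.2 CPM in Mito WT, against 15.8, 19.2 and 15.8 CPM in Total WT. TIL1, the catalytic subunit of DNA polymerase epsilon, rose by 1.75 and MCM2, of the replicative helicase, by 1.38. In all of these genes every Mito WT library lay above every Total WT library. KLCR1, the most abundant member of the kinesin list, rose by 0.33 and is not specific to division.

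Histones, which package DNA and were listed by name whatever their kind, had none of 36 members higher, 12 lower and a median of -0.22. With scaling by library size only their median was 0.26, below the shift of 0.48 in all genes. With length-corrected offsets the direction turned, with 15 higher and none lower. Leaving out Total WT replicate 2 gave 2 higher and 20 lower, and leaving out 1 Mito WT library gave none higher and 1 to 2 lower of 36. HTA2, a histone H2A, had 8.85, 10.4 and 9.43 CPM in Mito WT, against 13.6, 11.3 and 13.7 CPM in Total WT. AT4G40040, a histone H3 and the most abundant member, was at 97.9 ± 5.55 CPM in the Mito WT libraries, against 108 ± 6.65 CPM in the Total WT libraries (SD, n = 3 each) and was not called. Against genes of like length the histone median was 0.23.

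Markers of other cell types moved with the cell division genes. STM, a regulator that maintains the shoot meristem, had 62, 75 and 84 counts in the Mito WT libraries and 0 in each Total WT library. KNAT1, of the same homeobox family, had 46, 68 and 56 counts in Mito WT and 0 in each Total WT library. A floor of 3 counts in each Total WT library corresponds to 0.0636 to 0.0734 CPM, so that STM was at least 29.7-fold and KNAT1 at least 22.7-fold higher in Mito WT. STM and KNAT1 passed the filter through Mito WT alone. The flower regulator AP1, with 18, 17 and 17 counts in Mito WT and none in Total WT, was at least 6.96-fold higher but did not pass the filter. LFY, also a flower marker, had 3, 2 and 4 counts in Mito WT and none in Total WT, and did not pass either. AG, another flower regulator, had 15, 26 and 18 counts in Mito WT, against 37, 26 and 25 in Total WT, and did not pass the filter. The summed shoot meristem markers lay at 2.92 to 4.11 CPM in Mito WT and at 0.00 in Total WT, with the third marker, WUS, at 0 in all 6 libraries. The labels give leaf for both groups, and among the 6 WT libraries STM, KNAT1 and AP1 had counts in those named Mito only. Of the markers of dividing cells, KNOLLE, a syntaxin of the cell plate, was higher by 1.71 on the log2 scale and CYCB1;1, a cyclin of mitosis, by 1.92, and their sum was 7.12 to 9.03 CPM in Mito WT and 2.16 to 2.57 CPM in Total WT. CYCB1;1 passed the filter through Mito WT alone. The part of meristem or other dividing tissue in the rise of division, wall and membrane transcripts was not tested. In bulk RNA, fewer cells of a type and less RNA per cell cannot be told apart.

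Other cell types did not move as 1 block. Of 4 leaf mesophyll markers 3 were lower, and their sum was 15300 to 16100 CPM in Mito WT and 20100 to 28600 CPM in Total WT. LHCB1.3, of the light-harvesting antenna, had 7370, 7490 and 7160 CPM in Mito WT, against 12800, 9180 and 13200 CPM in Total WT. Epidermal markers had 4 of 5 higher, with a sum of 539 to 607 CPM in Mito WT and 465 to 534 CPM in Total WT, and CER1, a wax enzyme, was higher by 2.27 on the log2 scale. The trichome regulator GL2 was higher by 2.34, and it passed the filter through Mito WT alone. Of the guard cell markers MYB60 (-1.93), SLAC1 (-1.87) and HT1 (-1.53) fell, while KAT1 rose by 0.65, and the sum of all 5 was 16.9 to 19.9 CPM in Mito WT and 16.1 to 22.0 CPM in Total WT. MYB60, SLAC1 and HT1 passed the filter through Total WT alone, so they could only be called lower. Both phloem markers were lower, with log2 fold changes of -1.13 for SUC2 and -1.5 for APL, and their sum was 42.6 to 48.7 CPM in Mito WT and 91.0 to 112 CPM in Total WT. Of 5 xylem markers CESA7 was higher and none lower. With Total WT replicate 2 left out, CESA4 (0.69), CESA7 (1.14) and CESA8 (0.81) were higher, and XCP1 (-0.43) and XCP2 (-0.33) were lower. The mesophyll marker RCA (-0.43) and the epidermal marker LTP1 (-0.47) were then called lower too. Both root markers, WOX5 and RHD6, were at 0 in all 6 libraries.

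**Figure D5:**
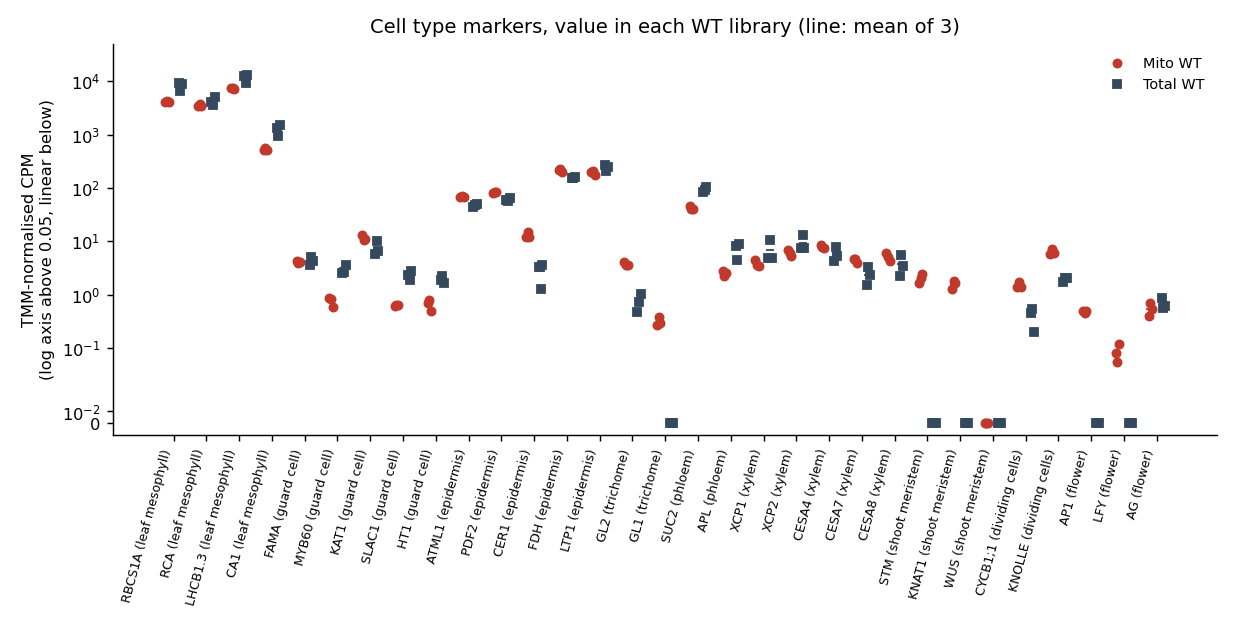
Cell type markers in each WT library, in TMM-normalised CPM on an axis that is logarithmic above 0.05 and linear below, with Mito WT libraries as circles to the left and Total WT libraries as squares to the right. STM, KNAT1, GL1, AP1 and LFY sit at 0 in all Total WT libraries, and the mesophyll markers RBCS1A, LHCB1.3 and CA1 lie lower in Mito WT.

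Transcripts for ribosomal proteins and ribosome assembly had more members lower than higher. Of 269 genes 236 were tested, 12 (5.08%) were higher and 127 (53.8%) lower, with a median of -0.34. Taking length into account changed the sign of this median. It was 0.07 above genes of like length, and with length-corrected offsets 32 were higher and 41 lower with a median of 0.06. Without Total WT replicate 2 the counts were 18 higher and 160 lower, and leaving out 1 Mito WT library gave 4 to 11 higher and 81 to 89 lower. With library size only the median was 0.13, below the shift of 0.48 in all genes.

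The 2 kinds of ribosome differed. Of 160 cytosolic ribosomal proteins 87 were lower and 4 higher, with a median of -0.32 and a median length of 915 bases. Against genes of like length their median was 0.11, and with length-corrected offsets 7 were lower and 25 higher. Without Total WT replicate 2, 116 were lower and 5 higher, and with 1 Mito WT library left out 49 to 56 were lower. PGY2, the most abundant, had 135, 146 and 139 CPM in Mito WT, against 151, 154 and 148 CPM in Total WT and was not called, and 85.2% of its coding 31-mers occur in another gene, so that reads are shared. AT4G00810, an acidic protein of the large subunit, had 15.7, 16.4 and 14.7 CPM in Mito WT, against 31.8, 27.4 and 29.9 CPM in Total WT. AT3G08520, a protein L41 whose gene is 246 bases long, fell by 0.94 and, with length-corrected offsets, by 0.20. Of the 4 higher members, AT1G58684, AT1G58983 and AT1G59359 are copies that share their reads, and the other was AT3G14600.

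Plastid ribosomal proteins lay low with and without length taken into account. Of 43 none was higher and 37 were lower, with a median of -0.92, and the median was 0.59 below genes of like length. RPS1 had 116, 125 and 126 CPM in Mito WT, against 240, 205 and 240 CPM in Total WT. GHS1, a plastid protein S21, had 42.1, 47.5 and 46.0 CPM in Mito WT, against 132, 100.1 and 124 CPM in Total WT. SSR16, the most abundant with RPS1, fell by 0.76, a call that was lost with length-corrected offsets (-0.22). Ribosome biogenesis genes had 8 of 33 higher and AT1G12830, AT3G13180 and AT5G61330 lower, or 12 higher and 6 lower in all when Total WT replicate 2 was left out and 4 to 8 higher and up to 1 lower when 1 Mito WT library was.

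Nuclear photosynthesis genes had the lowest median of the 35 lists. Of 54 light harvesting and photosystem subunits 52 were lower and none higher, with a median of -1.08 and 0.79 below genes of like length. Of 26 Calvin cycle and photorespiration genes 16 were lower, and a transketolase, AT2G45290, was higher. Together they took 15.9% to 17.0% of nuclear counts in Mito WT and 22.1% to 28.7% in Total WT, the lowest of these in Total WT replicate 2. Genes of the cytosol and nucleus were listed for comparison. Translation factors had 9 of 67 higher and 17 lower, proteasome subunits 3 of 45 higher (RPN1A, RPN1B and AT2G32730) and 10 lower, and transcription factors 69 of 300 higher and 29 lower. Leaving out Total WT replicate 2, the counts were 20 and 22 for translation factors, 10 and 16 for the proteasome and 100 and 62 for transcription factors. When 1 Mito WT library was left out they were 5 to 8 and 7 to 10, 1 to 2 and up to 2, and 30 to 41 and 9 to 17 in the same order. Of the 69 higher transcription factors, 17 passed the filter through Mito WT alone.

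Among nuclear genes of all kinds, 12 rises and 12 falls were named by size at a mean log2 CPM of at least 5. Besides BXL1, XTH24 and AT4G19420, the rises held very long genes. AT1G67120, a midasin-like protein, a factor of ribosome assembly known from yeast, is the longest called gene at that level, with 16614 bases at chromosome 1, 25069428 to 25095638. It had 123, 134 and 154 CPM in Mito WT, against 22.9, 34.1 and 26.4 CPM in Total WT, and its log2 fold change of 2.30 was 0.40 with length-corrected offsets. BIG, a protein of 15766 bases of exons needed for auxin transport, had 758, 704 and 787 CPM in Mito WT, against 151, 217 and 196 CPM in Total WT. Its log2 fold change of 2.0 was 0.15 with those offsets and no longer passed (adjusted p = 0.267, edgeR quasi-likelihood). AT4G36080, with 12133 bases, stood at 2.06 and, with the offsets, at 0.46. FAB1B, a lipid kinase of 6454 bases, stood at 2.03 and 0.98 in the same way and EMB3012 at 1.92 and 0.90. AT5G41750, a resistance protein, stood at 1.93 and, with the offsets, at 1.17, where it was not called (adjusted p = 0.111, edgeR quasi-likelihood). For 3 rises the values were closer. HSPRO2 stood at 2.15 and 2.17, AT3G24480, a leucine-rich repeat protein of the wall, at 2.10 and 2.20, and BGLU18, a beta-glucosidase, at 2.02 and 1.84 without and with the offsets.

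Of the 12 falls, all but AT1G07590 had exons of 253 to 1680 bases. The hydrophobic stretch is not particular to rises. Of the 12 falls 3 (AT1G67865, OEP6 and AT5G61310) carry it with no membrane span further on, as do 5 of the 12 rises. Genes with both the stretch and a span are not in these counts. The first 99 coding bases are shown for 4 protein-coding falls, chosen as the largest that lack it, so that no base is in capitals. They lie at chr1:2338383-2338481 on the minus strand (AT1G07590), chr1:23888967-23889065 on the plus strand (AT1G64370), chr1:8200434-8200532 on the plus strand (AT1G23130) and chr1:20310503-20310601 on the minus strand (AT1G54410).
AT1G07590: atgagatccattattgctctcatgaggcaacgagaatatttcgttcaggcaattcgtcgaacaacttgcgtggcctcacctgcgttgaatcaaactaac
AT1G64370: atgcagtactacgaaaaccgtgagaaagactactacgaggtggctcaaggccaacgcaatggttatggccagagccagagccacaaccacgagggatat
AT1G23130: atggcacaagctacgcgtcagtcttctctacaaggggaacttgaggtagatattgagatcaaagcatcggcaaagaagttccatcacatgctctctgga
AT1G54410: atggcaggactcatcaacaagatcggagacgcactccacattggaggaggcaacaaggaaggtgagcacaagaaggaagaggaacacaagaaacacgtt
AT1G67865, at chr1:25446589-25446687 on the minus strand, and AT1G22690, a fall among the small secreted proteins, at chr1:8027328-8027517 on the plus strand over 2 exons, are shown as falls that carry the stretch.
AT1G67865: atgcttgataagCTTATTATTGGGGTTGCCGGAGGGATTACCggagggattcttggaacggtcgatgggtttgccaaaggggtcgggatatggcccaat
AT1G22690: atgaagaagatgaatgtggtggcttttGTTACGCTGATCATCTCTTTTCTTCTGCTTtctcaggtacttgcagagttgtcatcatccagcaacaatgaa
AT1G07590, a repeat protein annotated to mitochondria, had 13.8, 17.6 and 17.2 CPM in Mito WT, against 165, 78.5 and 128 CPM in Total WT. It had the largest fall at a mean log2 CPM of at least 5, with a log2 fold change of -2.94 ± 0.28 (adjusted p = 0.000689, edgeR quasi-likelihood), and at 2407 bases it is not short. AT1G54410, a dehydrin, had 15.1, 16.2 and 15.4 CPM in Mito WT, against 98.5, 61.8 and 78.7 CPM in Total WT. In both genes Total WT replicate 2 was the lowest Total WT library. The 12 falls were named only from genes whose groups do not overlap, so its place above Mito WT was set by that rule.

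MT3, a metallothionein, had 62.1, 62.3 and 51.1 CPM in Mito WT, against 307, 170 and 253 CPM in Total WT. MT2B, of the same metal-binding family, fell by 1.73 and CCH, a copper chaperone, by 1.83. OEP6, of the plastid outer envelope, fell by 1.82, and AT3G47070, a phosphoprotein of thylakoids, by 1.82. AT5G02565, a non-coding RNA of 253 bases, had 30.8, 24.5 and 23.5 CPM in Mito WT, against 180, 194 and 180 CPM in Total WT. Its highest value was in Total WT replicate 2. AT1G67865, of unknown function, had 8.147, 8.57 and 7.965 CPM in Mito WT, against 81.55, 35.7 and 62.2 CPM in Total WT. With length-corrected offsets each of the 12 falls kept its call. AT2G04965, the shortest called gene at that level of expression with 66 bases, fell by 0.95 and had a value of 0.11 there.

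Small nuclear RNAs of other kinds were few after the filter. Of 49 snoRNAs, guides of ribosomal RNA modification, 20 were lower and none higher, with a median of -0.91. With length-corrected offsets 5 were lower and 7 higher. All 12 tested tRNA genes were higher, and each of them shares exon sequence with an organelle chromosome. Of the 79 tested nuclear genes with such exons 72 were higher and 3 lower.

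The comparison of Mito with Total was also made in otp90, and the difference between the genotypes was tested as an interaction over all 12 libraries. None of 16825 genes passed (edgeR quasi-likelihood), 853 had an unadjusted p under 0.05, and none passed in any of the 14 other settings, where 540 to 1791 did so unadjusted. This does not show that the 2 genotypes were alike. The 2 comparisons share no library, and their medians are given side by side. The secretory median was 0.30 in otp90 and 0.20 in WT, the membrane median 0.37 in otp90 and 0.41 in WT, and the cell division median 0.65 in otp90 and 0.43 in WT. The mitochondrial median was -0.01 in otp90 and -0.16 in WT. The ribosomal median was 0.02 in otp90 and -0.34 in WT, and of 160 cytosolic ribosomal proteins 10 were lower in otp90 and 87 in WT. Of all tested nuclear genes, 3531 of 16000 were lower in otp90 and 3332 of 16255 in WT. STM and KNAT1 had 34 to 76 counts in each Mito otp90 library and 0 in each Total otp90 library.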

How the data were processed

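Ribosomal RNA was depleted and stranded single-end libraries were sequenced. The deposited values are raw counts per gene made by the authors, who aligned reads with STAR with introns not opened and all equally good positions reported, and counted exons by gene with featureCounts 1.6.3 (strand setting 2, multi-mapping reads counted). Reads over splice junctions could thus not align in full, and near-identical genes share reads. The depth was 27611023 to 52443538 counts a library, and 3 counts equal 0.0806 to 0.0882 CPM in Mito WT and 0.0636 to 0.0734 CPM in Total WT, limits that cover counting error only.

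Genes over 1 CPM in at least 3 libraries were fitted with the quasi-likelihood test of edgeR 4.0.16 (R 4.3.3, TMM factors, Benjamini-Hochberg). Standard errors were derived from the F statistic. On simulated counts of 16055 genes 189 of 200 changed genes (94.5%) were recovered, with 11 false calls. The count-weighted gene length of each library was compared by an exact permutation test. No pair of replicates agreed within sampling noise (chi-square per degree of freedom of 12.36 to 104.04). The labels do not say which Mito and Total libraries came from the same plants, and p-values measure the spread between these libraries. DESeq2 1.42.0, limma 3.58.1, other scalings and filters, offsets corrected for length, a replicate block and leaving out each library were tried as alternatives.

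The annotation was RefSeq on TAIR10.1, in which 99.95% of 32548 nuclear genes had the span of the deposited tables. Classes were made from words of annotated symbols and products, corrected on names alone. The hydrophobic stretch was 10 residues with a mean Kyte-Doolittle hydropathy of at least 2.0 within residues 1 to 32, and a membrane span was 19 residues of at least 1.6 (alternative 1.8) from residue 36. Genes with at least 10% of exon 31-mers on an organelle chromosome were called organelle-like.

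Named genes were the 12 largest rises and falls at a mean log2 CPM of at least 5, with groups that do not overlap and no organelle-like exons. For each class they were the 2 most abundant members and the 2 largest rises and falls at a mean log2 CPM of at least 3. Members of counts of 5 or fewer outside this rule, and INDH, were named after their values were seen. The members and lists were chosen with earlier results of these data known.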

Additional observations from a re-analysis of the deposited data

How the results depend on the processing

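Of 16436 tested genes 7176 were called, 3748 higher and 3428 lower in Mito WT. Scaling by library size alone gave 7795 higher and 979 lower, and length-corrected offsets gave 2341 higher and 2535 lower. At least 2-fold were 2102 genes, 1304 higher and 798 lower. Leaving out 1 library gave 4322 to 10242 calls, of which 2284 to 5118 were higher and 2038 to 5124 lower. The number of calls moved by over 1.5 times without Mito WT replicate 1 (4547) and without Mito WT replicate 3 (4322), and the number of lower calls also without Mito WT replicate 2 (2245). DESeq2 called 7154 genes, limma voom 7205, the fit of all 12 libraries 8001, filterByExpr 7893, no filter 7739 and nuclear genes alone 7467.

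Whether libraries of the same replicate number are paired is not stated. Deviations of same-numbered Mito WT and Total WT libraries correlated at 0.073, -0.003 and 0.045 across genes, and those of other pairs at -0.07 to 0.034. With 3 libraries a group, these values cannot decide whether same-numbered libraries share plants. With the number as a replicate block 6355 genes were called, 3417 higher and 2938 lower. The block with length-corrected offsets called 3556, 1767 higher and 1789 lower. The block moved the secretory median to 0.28 and the membrane median to 0.48. With the offsets added it gave 0.22 for membrane, -0.13 for mitochondrial, 0.56 for cell division and 0.06 for ribosomal transcripts, the last with its sign turned. Of 132 named genes that were called, 116 kept their call under the block and 82 with the offsets added.

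The secretory median of 0.20 was 0.67 with library size only, 0.34 with no filter, 0.15 with length-corrected offsets, 0.28 with limma voom, 0.17 against genes of like length and 0.11 to 0.29 with 1 library left out. The membrane median of 0.41 was 0.88 with library size only, 0.14 with length-corrected offsets, 0.48 with limma voom, 0.15 against genes of like length and 0.28 to 0.43 with 1 library left out. The mitochondrial median of -0.16 was 0.31 with library size only, -0.19 with DESeq2, -0.11 with nuclear genes only, -0.00 with no filter, -0.03 with filterByExpr, -0.14 with all 12 libraries and -0.21 to -0.14 with 1 library left out. The cell division median of 0.43 was 0.91 with library size only, 0.50 with nuclear genes only, 0.48 with no filter, 0.56 with length-corrected offsets, 0.57 against genes of like length and 0.36 to 0.53 with 1 library left out. The ribosomal median of -0.34 turned to 0.13 with library size only, 0.06 with length-corrected offsets and 0.07 against genes of like length, and was -0.40 to -0.30 with 1 library left out. Library size only moved all genes by 0.48. Fits with 1 Mito WT library left out lack the genes that passed the filter through Mito WT alone. Other causes of these shifts were not tested.

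Named genes whose sign turned with library size only were GER1 (0.10), PIP2A (0.23), AAC1 (0.15), AT4G26410 (0.02), AT4G40040 (0.34), HTA2 (0.06), PGY2 (0.37), AT3G01740 (0.12), AT3G03770 (0.05), AT2G23950 (0.04), CLC2 (0.13), AT4G23500 (0.17) and AT4G28360 (0.03). With length-corrected offsets, without and with the replicate block, the sign turned for AT2G04965 (0.11 and 0.11), GER1 (0.05 and 0.06), AT3G11130 (-0.05 and -0.04), HA1 (-0.15 and -0.14), AT4G40040 (0.03 and 0.03), HTA2 (0.08 and 0.08), PGY2 (0.30 and 0.30) and CLC2 (0.02 and 0.01). Of the 132 called, 32 lost the call with length-corrected offsets without a turn of sign, 21 with library size only and 1 to 37 of the 126 to 130 still tested with 1 library left out.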
